A study of Homo sapiens with 3 samples.

Results

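MALAT1, NEAT1 and KCNQ1OT1 are 3 long non-coding RNAs that stay largely in the nucleus, and they are described here across 3 single-cell libraries of H9, an established line of human embryonic stem cells. They are 3 of the 31113 gene symbols in the deposited count matrices. They were chosen by values measured in these data, namely their counts per 1000000 UMIs (CPM) in each library and in classes of cells with different shares of mitochondrially encoded UMIs. Those levels are therefore given as a description, with no test. Cells were captured in droplets (inDrop, TruDrop protocol), where every molecule caught is tagged with the barcode of its cell and with a random tag of its own, the unique molecular identifier or UMI. The labels assign 1 library each to day 0 (letter A), day 2 (letter B) and day 6 (letter A) of differentiation towards neural progenitor cells; the letters are not explained. The medium mTeSR and the STEMdiff SMADi Neural Induction Kit, which blocks SMAD signalling, are named for all 3 libraries, the one labelled day 0 included, and all come from 1 cell line. The cell type is given as human embryonic stem cells for day 0 and as differentiated stem cells or neural progenitors for day 2 and day 6.

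MALAT1 accumulates at nuclear speckles, domains rich in splicing factors. NEAT1 is made as a short polyadenylated isoform and a long isoform, and the long one is the scaffold of paraspeckles, nuclear bodies that hold RNA-binding proteins and edited RNAs. KCNQ1OT1 is an unspliced antisense RNA started inside the potassium channel gene KCNQ1; it is imprinted, is made from the paternal chromosome and silences neighbouring genes on that chromosome. None of them codes for a protein. The level of nuclear RNAs and the mitochondrial share of UMIs are both in common use as gauges of cell integrity in droplet data.

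All 3 genes are on chromosome 11 (GENCODE v29 annotation, GRCh38, the build named hg38 in the submitters' processing notes). MALAT1 spans 65497688 to 65506516 on the plus strand, and a short lincRNA, AP000769.2, overlaps it on the other strand at 65498010 to 65498405. NEAT1 spans 65422774 to 65445540 on the plus strand; its short transcript has 3441 bases and ends at 65426457, and its long transcript has 22743 bases. KCNQ1OT1 is a single exon of 91667 bases on the minus strand, 2608328 to 2699994, and lies wholly within KCNQ1, which spans 2444684 to 2849110 on the plus strand. Whether counting used strand is not given in the sources used here, so reads of KCNQ1OT1 and of KCNQ1 introns, and of MALAT1 and AP000769.2, may not be separable. Summed counts also cannot tell the NEAT1 isoforms apart.

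MALAT1 and long NEAT1 share an unusual 3′ end. Both transcripts are cut by RNase P before a small tRNA-like RNA, and their ends hold U-rich stretches that fold around a genome-encoded A-rich tail into a triple helix in place of a poly(A) tail added after transcription. The capture primers of inDrop end in poly(T), so A-rich stretches within the transcripts are of interest for how the molecules can be caught. The 110 bases before the annotated small RNA of each gene are printed 5′ to 3′ on the transcript strand, with the stretches of at least 8 bases that the 2 windows share, in the same order, in capitals, followed by the longest run of A in KCNQ1OT1, also in capitals, with 25 bases on each side. The sequences are from GENCODE v29 transcripts of MALAT1 (chr11:65506007-65506116, plus strand), NEAT1 (chr11:65445431-65445540, plus strand) and KCNQ1OT1 (chr11:2610692-2610770, minus strand).
MALAT1: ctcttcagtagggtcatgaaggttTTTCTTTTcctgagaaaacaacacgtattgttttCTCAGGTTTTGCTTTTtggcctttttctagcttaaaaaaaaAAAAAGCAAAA
NEAT1: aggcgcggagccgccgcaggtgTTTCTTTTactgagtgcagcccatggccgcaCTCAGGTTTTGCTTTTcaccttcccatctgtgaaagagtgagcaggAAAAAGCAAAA
KCNQ1OT1: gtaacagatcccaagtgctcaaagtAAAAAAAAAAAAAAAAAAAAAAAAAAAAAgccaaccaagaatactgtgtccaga

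The shared stretches are TTTCTTTT, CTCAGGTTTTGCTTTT and AAAAAGCAAAA, each found once per window on the transcript strand, which alone was searched; they do not overlap. The annotated small RNA, of 57 bases for MALAT1 and 58 bases for NEAT1, begins at the next base. In the last 110 bases of the 55848 annotated long non-coding transcripts of at least that length, TTTCTTTT occurred in 1.30%, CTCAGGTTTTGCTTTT in 0.00179% (1 transcript) and AAAAAGCAAAA in 0.0466% (26 transcripts). The 1 transcript with all 3 is long NEAT1 itself, since the annotated MALAT1 transcript runs on past its small RNA. Runs of at least 10 A occurred 17 times in KCNQ1OT1 (longest 29), 5 times in long NEAT1 (longest 22), 1 time in MALAT1 (13 bases) and 0 times in short NEAT1. Per kilobase this was 0.185 runs in KCNQ1OT1, 0.220 in long NEAT1 and 0.115 in MALAT1, beside 0.0679 over all 56111 long non-coding transcripts. Of these, with a median length of 617 bases, 5.54% held such a run. Long non-coding transcripts were picked here and above by the annotated type of the transcript, not of its gene. Non-coding transcripts of coding genes can therefore be among them. These matches describe the letters of the annotated transcripts and do not show where molecules were primed.

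Cells with 1000 or more UMIs, 500 or more genes and no more than 25% mitochondrial UMIs were kept. Those labelled day 0, day 2 and day 6 numbered 2290, 2419 and 4180, with 28341741, 20626135 and 41268018 UMIs and medians of 8770, 3814 and 4429 UMIs per cell. The median mitochondrial share was 12.1%, 5.26% and 8.27%, and 20.2%, 49.0% and 39.4% of kept cells were under 5%. Several marker genes go against the labels: POU5F1, the pluripotency factor that undifferentiated H9 cells express, stood at 2.22, 1229 and 268 CPM, and PAX6, a neural progenitor factor, at 176, 6.64 and 27.9 CPM. The pluripotency marker TDGF1 (0, 570 and 6.69 CPM) and the neural progenitor marker DLK1 (3137, 79.5 and 315 CPM) went the same way. Others did not: of the pluripotency markers, SOX2 had 600, 333 and 810 CPM and LIN28A 1039, 1037 and 1828 CPM. The neural progenitor marker FEZF1 had 160, 29.4 and 424 CPM. Differences between libraries are therefore not given as changes over time. A value given under day 0, day 2 or day 6 is that of the library with this label, whatever its cells were. The libraries shared 38 kept barcodes (labelled day 2 and day 0), 82 (day 6 and day 0) and 72 (day 6 and day 2). With 1 library per label there are no replicates, and all 95% intervals cover counting error only; they leave out variation between cells and cultures.

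MALAT1 was the most abundant of the 3 RNAs in every library. The library labelled day 0 held 116692 MALAT1 UMIs, or 4117 CPM (exact Poisson interval 4094 to 4141). Under the label day 2 there were 16489, or 799 CPM (787 to 812), and under day 6 there were 26354, or 639 CPM (631 to 646). KCNQ1OT1, with 1461, 539 and 1648 UMIs, reached 51.5 CPM under day 0 (48.9 to 54.3), 26.1 CPM under day 2 (24.0 to 28.4) and 39.9 CPM under day 6 (38.0 to 41.9). NEAT1 had 772, 114 and 246 UMIs, which gave 27.2 CPM (25.3 to 29.2) for the label day 0, 5.53 CPM (4.56 to 6.64) for day 2 and 5.96 CPM (5.24 to 6.75) for day 6. All 3 RNAs were highest in the library labelled day 0. The order of the other two libraries differed by gene: MALAT1 was lowest under day 6, KCNQ1OT1 was lowest under day 2, and the intervals of NEAT1 overlapped. CPM counts molecules and is not divided by length, so the order among genes is an order of captured molecules. In a sum over cells, fewer cells that express an RNA and less of it per cell cannot be told apart.

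**Figure D1:**
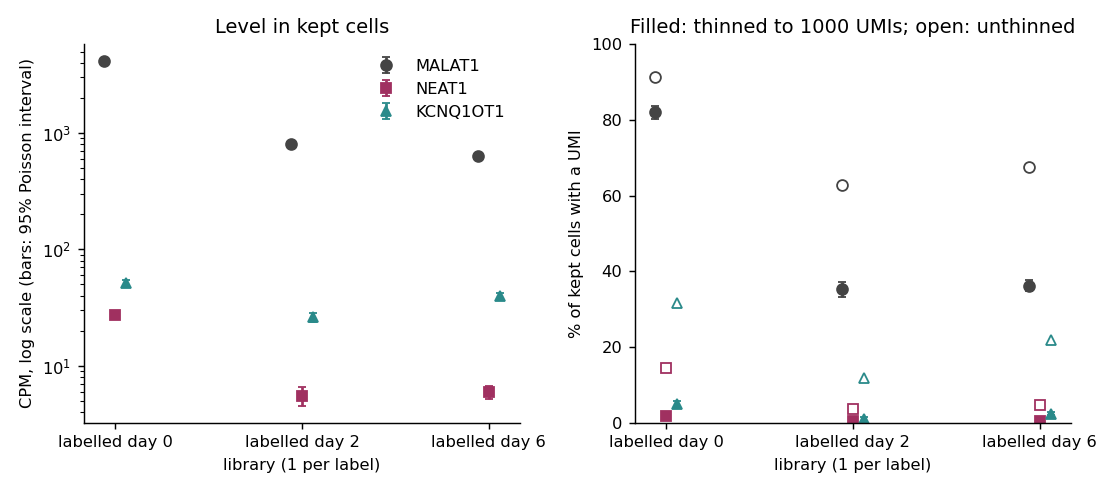
CPM of MALAT1, NEAT1 and KCNQ1OT1 (logarithmic axis) in the kept cells of the libraries labelled day 0, day 2 and day 6; points are the level of 1 library and bars its exact Poisson 95% interval, which covers counting error only. All 3 RNAs stand highest under day 0, where MALAT1 reached 4117 CPM.

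With all UMIs of a cell counted, MALAT1 was found in most kept cells, and NEAT1 and KCNQ1OT1 in fewer. A MALAT1 UMI was present in 91.4%, 62.8% and 67.5% of the kept cells labelled day 0, day 2 and day 6. The matching shares were 14.5%, 3.72% and 4.62% for NEAT1 and 31.6%, 11.8% and 21.8% for KCNQ1OT1. After each cell was thinned to 1000 UMIs the shares for MALAT1 were 82.0%, 35.2% and 36.1%. The median cell held 3134 CPM of MALAT1 under day 0, 346 CPM under day 2 and 353 CPM under day 6, and 10% of cells lay above 7742, 1685 and 1534 CPM. Cells within each library thus spanned a wide range: under day 0 another 10% lay below 222 CPM. The variance of thinned MALAT1 counts was 3.73, 2.82 and 2.07 times their mean, beside 1 for counts that vary by sampling alone.

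NEAT1 came from few cells. The 1% of cells with the most NEAT1 held 33.5%, 42.1% and 38.2% of its UMIs under day 0, day 2 and day 6, whereas the 1% of cells with the most UMIs held 4.32%, 8.0% and 6.69% of all UMIs. For MALAT1 the matching shares were 6.60%, 15.2% and 11.3%; an RNA seen in few cells has a high share of this kind by its sparseness alone. One cell under day 0 carried 30 NEAT1 UMIs. Thinned NEAT1 counts had a variance of 1.82, 1.16 and 0.997 times their mean, and those of KCNQ1OT1 1.08, 0.991 and 1.05 times. At means of 0.00359 to 0.0515 thinned UMIs per cell, a ratio near 1 cannot show that spread beyond sampling is absent. Counting intervals are narrower than the spread over cells warrants for MALAT1 in all 3 libraries and for NEAT1 under day 0. The thinned counts cannot settle this for KCNQ1OT1 or for NEAT1 under day 2 and day 6.

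The share of thinned cells with a UMI was 1.83%, 0.455% and 0.359% for NEAT1 and 4.85%, 0.951% and 2.42% for KCNQ1OT1. Among 12 genes that belong to tissues absent from such cultures, the median gene was seen in 0%, 0.0207% and 0.0120% of thinned cells, but the cardiac troponin gene TNNI3 was seen in 2.31%, 6.41% and 2.56% (24.8, 53.7 and 23.3 CPM) and the skeletal actin gene ACTA1 in 1.70%, 0.703% and 1.63%. Apart from KCNQ1OT1 under day 0, the shares of NEAT1 and KCNQ1OT1 were below that of TNNI3, the highest of the 12. All were above the share of the median gene. Barcodes under 500 UMIs with at most 25% mitochondrial UMIs had 5.63, 0 and 5.92 CPM of NEAT1 under day 0, day 2 and day 6. Their KCNQ1OT1 stood at 27.2, 16.0 and 16.3 CPM. Whether the shares are background was not tested, and they are not read as a share of expressing cells. MALAT1 was far above all of the 12 genes in each library, but the same small barcodes held 2561, 752 and 439 CPM of it. The levels of MALAT1, NEAT1 and KCNQ1OT1 in classes of cells, given below, carry this limit: the part of free RNA in them was not tested.

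MALAT1 in the library labelled day 2 was 0.194 times its level under day 0 (exact conditional binomial interval 0.191 to 0.197; log2 ratio −2.37). NEAT1 stood at 0.203 times (0.165 to 0.247) and KCNQ1OT1 at 0.507 times (0.458 to 0.560), just outside the limit of 2-fold; in cells of 2000 to 5000 UMIs alone KCNQ1OT1 was at 0.0967 times. Thus 2 of the 3 members were at most 0.5 times as high in the library labelled day 2, where 10.2% of the genes with at least 10 CPM in either library were that much lower, 10.1% were at least 2-fold higher and the median log2 ratio of all genes was 0.01. Against the label day 0, the library labelled day 6 had 0.155 times as much MALAT1 (0.153 to 0.157), 0.219 times as much NEAT1 (0.189 to 0.253) and 0.775 times as much KCNQ1OT1 (0.722 to 0.832). Again 2 of 3 members were at most 0.5 times as high, beside 6.09% of genes, and 9.94% were at least 2-fold higher. These ratios share the library labelled day 0 and describe the contrast on which the genes were picked. Between the libraries labelled day 6 and day 2, the ratios were 0.799 (0.783 to 0.815) for MALAT1, 1.08 (0.860 to 1.36) for NEAT1 and 1.53 (1.39 to 1.69) for KCNQ1OT1, which in cells of 2000 to 5000 UMIs was at 5.03 times. None of the 2 members that reached 10 CPM was 2-fold apart there, while 14.6% of genes were, in either direction.

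The mRNAs of the proteins that build speckles and paraspeckles did not, as a group, stand lower along with these RNAs. Of 29 measured paraspeckle proteins, 1 was at most 0.5 times as high under day 2 as under day 0 and 0 were 2-fold higher, with a median log2 ratio of 0.24. SFPQ, an essential paraspeckle protein, had 242 CPM under day 2 and 136 CPM under day 0, a ratio of 1.78, and its partner NONO had 528 and 533 CPM. Under day 6, 4 of 29 were at least 2-fold higher than under day 0, with SFPQ at 523 CPM (3.84 times). Of 24 speckle proteins, 1 was 2-fold higher under day 2 than under day 0, the splicing factor SRSF3 (2.14 times), and 4 were higher under day 6, among them SRSF2 (3.40 times). Of 13 measured genes for RNase P and other factors that process these 3′ ends, 2 were higher under day 2 than under day 0, with the RNase P subunit RPP25 highest at 5.26 times.

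In the imprinted domain around KCNQ1OT1, 5 genes were measured between the libraries labelled day 2 and day 0. CDKN1C, a cell cycle inhibitor that the paternal chromosome keeps silent, had 43.1 CPM under day 2 and 141 CPM under day 0, a ratio of 0.306, the 1 gene of the list past 2-fold. Under day 6 it had 99.8 CPM, 0.707 times the level under day 0, and 0 of 6 measured genes were 2-fold apart from day 0. KCNQ1 itself had 3.53, 7.85 and 2.64 CPM under day 0, day 2 and day 6, below the minimum of 10 CPM. Both CDKN1C and KCNQ1OT1 were thus lowest under day 2. Among the genes next to MALAT1 and NEAT1, 2 of 9 were at least 2-fold higher under day 2 than under day 0, led by the GTPase activator SIPA1 (4.37 times). NEAT1 is a known p53 target; among 11 p53 and stress genes 5 were higher under day 2 than under day 0, led by the stress factor DDIT3 (7.08 times), while the p53 target CDKN1A was lower at 4.95 CPM against 62.3 CPM (0.0794 times).

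Of 10 other long non-coding RNAs found mainly in the nucleus, 2 were at most 0.5 times as high and 3 at least 2-fold higher under day 2 against day 0 (median log2 ratio −0.22). RN7SK, the RNA that holds the elongation factor P-TEFb inactive, stood at 7.83 times, and the imprinted MEG3 at 0.0482 times. XACT, an RNA of pluripotent cells that coats active X chromosomes, had 293 CPM under day 2 and 1127 CPM under day 0 (0.260 times). Under day 6 against day 0, 2 of 9 were higher and 2 lower, with MIAT, an RNA linked to neural and heart tissue, at 2.55 times. The list did not move in 1 direction between libraries.

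Within each library, the members' levels varied with the mitochondrial share of the cell. Cells of 2000 to 5000 UMIs were split into classes of under 5%, 5 to 10%, 10 to 25% and over 25% mitochondrial UMIs, with 201, 55, 220 and 230 cells in the library labelled day 0, 496, 115, 164 and 417 in that labelled day 2, and 707, 160, 304 and 329 in that labelled day 6. Because mitochondrial UMIs take room in the total, levels across these classes are given per 1000000 non-mitochondrial UMIs. MALAT1 under day 0 had 1813, 5069, 5124 and 2023 CPM from the lowest class to the highest. Under day 2 it had 389, 665, 1467 and 2086 CPM, and under day 6 it had 547, 766, 788 and 341 CPM. MALAT1 was therefore lower in the cells with under 5% than in those with 10 to 25% in all 3 libraries, while the cells over 25% were low under day 0 and day 6 and highest under day 2; as a share of all UMIs, MALAT1 under day 2 stood at 0.920 times (0.839 to 1.01) in cells over 25% against those of 10 to 25%.

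The cells without MALAT1 followed the same classes. The share of cells with no MALAT1 UMI was 38.3%, 3.64%, 1.36% and 23.9% from the lowest class to the highest under day 0, 54.6%, 41.7%, 14.0% and 26.6% under day 2, and 49.6%, 39.4%, 32.6% and 62.0% under day 6. Per 1000000 of all its UMIs, mitochondrial ones included, the median cell of the class under 5% held 378 CPM under day 0, 0 CPM under day 2 and 210 CPM under day 6. In the class of 10 to 25% the median cell held 3598, 808 and 369 CPM on this scale of all UMIs, so the difference was not carried by a few cells.

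**Figure D2:**
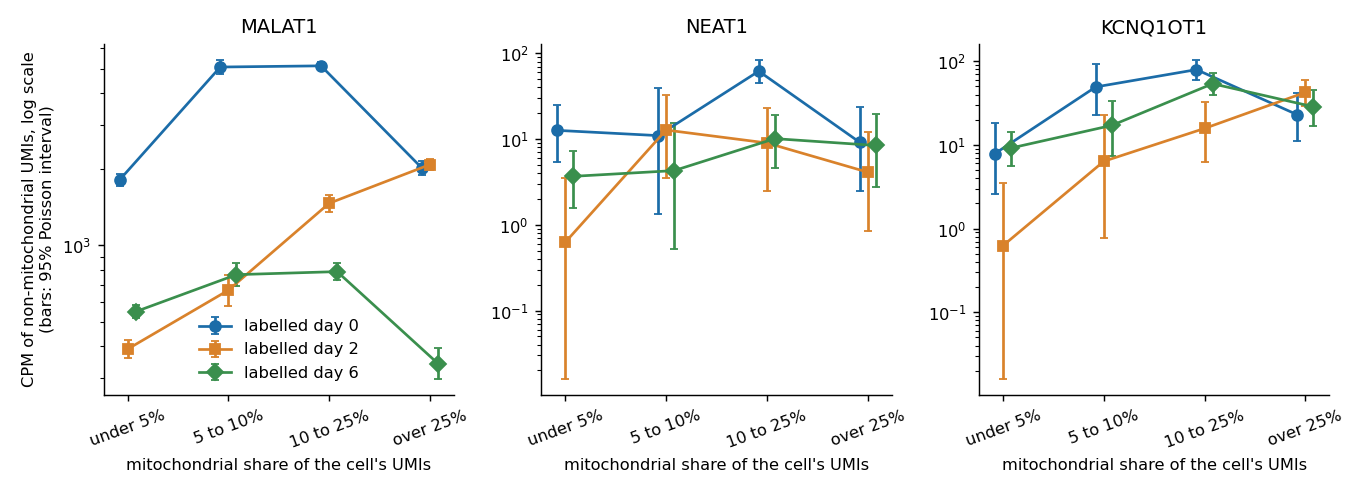
CPM of non-mitochondrial UMIs (logarithmic axis) for each RNA in 4 classes of mitochondrial share, in cells of 2000 to 5000 UMIs, 1 line per library; bars are exact Poisson 95% intervals for counting error. MALAT1 and KCNQ1OT1 are lower under 5% than at 10 to 25% in each library, NEAT1 has too few UMIs under day 2 and day 6 to be ordered, and over 25% MALAT1 and KCNQ1OT1 stand highest under the label day 2 but lower under day 0 and day 6.

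KCNQ1OT1 differed more between these classes than MALAT1 did, on few UMIs. Under day 0 it had 7.88, 49.3, 79.5 and 23.0 CPM of non-mitochondrial UMIs from the lowest class to the highest (5, 9, 54 and 10 UMIs). Under day 2 it had 0.626, 6.36, 15.7 and 42.5 CPM (1, 2, 7 and 31 UMIs), and under day 6 it had 9.18, 17.1, 53.9 and 28.6 CPM (20, 8, 48 and 17 UMIs). The class under 5% was lowest in each library. NEAT1 under day 0 had 12.6, 11, 61.8 and 9.19 CPM (8, 2, 42 and 4 UMIs), and the 42 UMIs came from 16 of 220 cells. Its counts under day 2 (1, 4, 4 and 3 UMIs) and day 6 (8, 2, 9 and 5 UMIs) are too few to order the classes.

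As a ratio of CPM, cells under 5% against cells of 10 to 25% had 0.413 times as much MALAT1 under day 0 (0.386 to 0.442), 0.312 times under day 2 (0.279 to 0.349) and 0.811 times under day 6 (0.738 to 0.891). For KCNQ1OT1 the ratios were 0.116 (0.0362 to 0.287), 0.0467 (0.00104 to 0.364) and 0.199 (0.112 to 0.342). NEAT1 gave 0.238 (0.0967 to 0.514) under day 0, 0.0818 (0.00166 to 0.826) under day 2 and 0.424 (0.142 to 1.24) under day 6. At most 0.5 times as high were 3 of 3 members under day 0, where 16.5% of genes were, 2 of the 2 members that reached 10 CPM under day 2, where 13.3% of genes were, and 1 of 2 under day 6, where 9.17% of genes were; 9.14%, 6.79% and 2.96% of genes were at least 2-fold higher. The median log2 ratio of all genes was 0.10, 0.12 and 0.13. Per 1000000 non-mitochondrial UMIs, MALAT1 stood at 0.354, 0.265 and 0.695 times and KCNQ1OT1 at 0.0992, 0.0397 and 0.170 times. Cells of 5000 to 20000 UMIs come from the same libraries and are part of the library levels by which the members were chosen. On the same non-mitochondrial scale they gave 0.320, 0.354 and 0.722 times for MALAT1 and 0.201, 0.119 and 0.246 times for KCNQ1OT1. For NEAT1 they gave 0.133, 0.317 and 0.733 times.

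The classes also differed in the cells they held. Summed neural progenitor markers stood at 4867, 4954, 5536 and 5392 CPM of non-mitochondrial UMIs from the lowest class to the highest under day 0, at 93.9, 82.7, 1053 and 138 CPM under day 2, and at 934, 1336, 1393 and 1063 CPM under day 6. Without the cells that held at least 3 UMIs of DLK1, NR2F2 and MEIS2 and none of POU5F1, which were 8 of 164 in the 10 to 25% class under day 2 and 29 of 304 under day 6, MALAT1 under 5% was 0.278 times its level at 10 to 25% under day 2 and 0.722 times under day 6 on the non-mitochondrial scale. KCNQ1OT1 then stood at 0.0378 and 0.169 times. That definition was chosen after the values were seen, and it left marker sums of 93.9 CPM under 5% and 697 CPM at 10 to 25% under day 2, and of 902 and 990 CPM under day 6; the part of the remaining difference in marker content was not tested. Cells over 25% also had fewer genes, with a median of 1040, 950 and 1080 genes per cell, beside 1700, 1470 and 1656.5 at 10 to 25%; the part of this in the members' levels was not tested.

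In narrower steps of mitochondrial share, MALAT1 under day 0 stood at 1398 CPM of non-mitochondrial UMIs in cells under 1%, reached 5468 CPM at 10 to 15% and was 1106 CPM over 50%. Cells with no MALAT1 UMI were 42.3% of the cells under 1% and 0 of the 115 cells at 10 to 15%, which allows a share of up to 2.61%. Under day 2 the level was 205 CPM under 1%, 1366 CPM at 10 to 15% and 2368 CPM over 50%. Under day 6 it was 383 CPM under 1%, 891 CPM at 10 to 15% and 231 CPM over 50%, where 80.5% of cells had none. The low end was alike in direction in all 3 libraries and the high end was not: set against cells of 10 to 25%, those over 25% had 0.395, 1.42 and 0.433 times as much MALAT1 under day 0, day 2 and day 6, in comparisons where 16.3%, 21.5% and 12.8% of genes were past 2-fold in either direction.

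**Figure D3:**
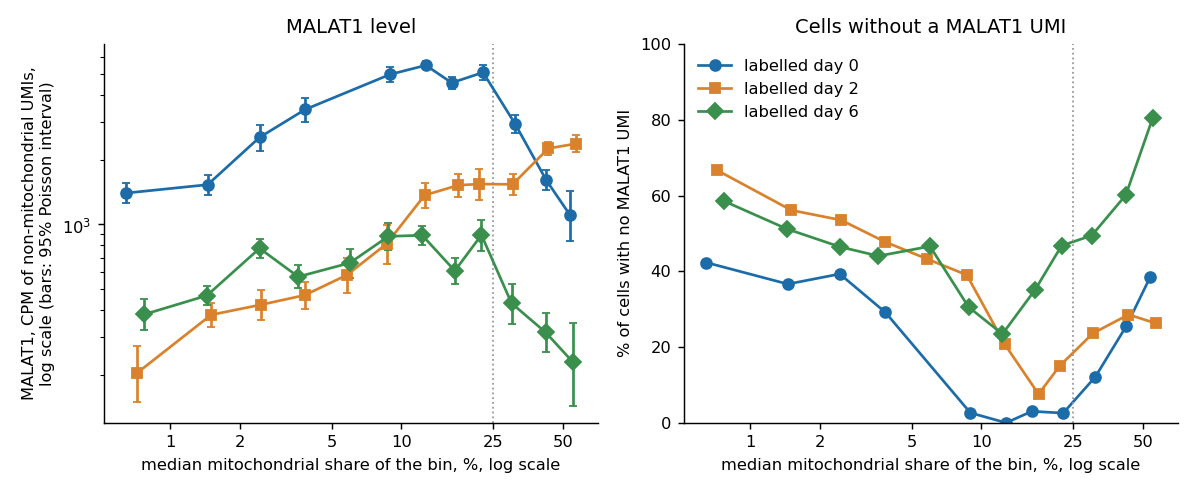
MALAT1 in cells of 2000 to 5000 UMIs by narrow steps of mitochondrial share, as CPM of non-mitochondrial UMIs and as the percent of cells with no MALAT1 UMI, for the libraries labelled day 0, day 2 and day 6; steps with under 20 cells are left out. Among cells of at most 25% the level is lowest under 1% in each library. Beyond 25% each step lies below the step of 10 to 15% under day 0 and day 6. Under the label day 2 it does not, with 2368 CPM over 50%.

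Other nuclear long non-coding RNAs stood lower along with the members in the cells under 5%. On the CPM scale, 5 of 9 measured under day 0, 7 of 11 under day 2 and 8 of 11 under day 6 were at most 0.5 times as high as at 10 to 25%, and 0 were 2-fold higher in any library; the median log2 ratios were −1.78, −2.13 and −1.45. XACT was at 0.0899, 0.131 and 0.163 times, PVT1, a long RNA beside MYC, at 0.173, 0.192 and 0.405 times, and FIRRE, an X-linked RNA that anchors chromosomes in the nucleus, at 0.292, 0.199 and 0.384 times. RMST, a neural RNA that binds SOX2, was at 0.212, 0.327 and 0.241 times. TUG1, which occurs in both nucleus and cytoplasm, was nearly level at 0.862, 0.765 and 0.95 times. RN7SK, which RNA polymerase III makes without a poly(A) tail, was at 0.973, 0.228 and 0.136 times.

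Among messenger RNAs with long introns or known nuclear retention, 11 of 27 under day 0, 8 of 24 under day 2 and 3 of 24 under day 6 were at most 0.5 times as high in cells under 5% on the CPM scale, with median log2 ratios of −0.82, −0.77 and −0.17. On the non-mitochondrial scale, which moves the median log2 ratio of all genes to −0.18, −0.15 and −0.12, the counts were 17 of 27, 12 of 24 and 8 of 26 for these mRNAs and 5 of 9, 7 of 11 and 10 of 12 for the other nuclear long non-coding RNAs, where 23.3%, 19.2% and 14.3% of genes were that low; which list held the larger share therefore turned with the scale under day 0. MEG3 and FTX stand in the mRNA list although they are long non-coding RNAs. On the CPM scale, cytoplasmic long non-coding RNAs gave 1 of 10, 0 of 10 and 0 of 10 lower, with medians of 0.07, 0.01 and 0.21. NORAD, which binds PUMILIO proteins in the cytoplasm, had 1.51, 1.30 and 1.33 times its level at 10 to 25%, and GAS5, a host of small nucleolar RNAs, 1.22, 1.23 and 1.35 times. Of 27, 27 and 28 abundant cytoplasmic mRNAs 0 were lower, and the medians were 0.71, 0.63 and 0.58. Paraspeckle protein genes had medians of 0.61, 0.46 and 0.44, with 1 of 28, 3 of 29 and 1 of 29 lower, and SFPQ and NONO were at 1.34 and 1.52 times under day 0. Most mRNAs of paraspeckle proteins thus did not stand low where the RNAs did. Among the other genes with at least 50 CPM of non-mitochondrial UMIs in a class of each library, 157 of 3106 (5.05%) were at most 0.5 times as high in all 3 libraries, and 0 were at least 2-fold higher in all 3.

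**Figure D4:**
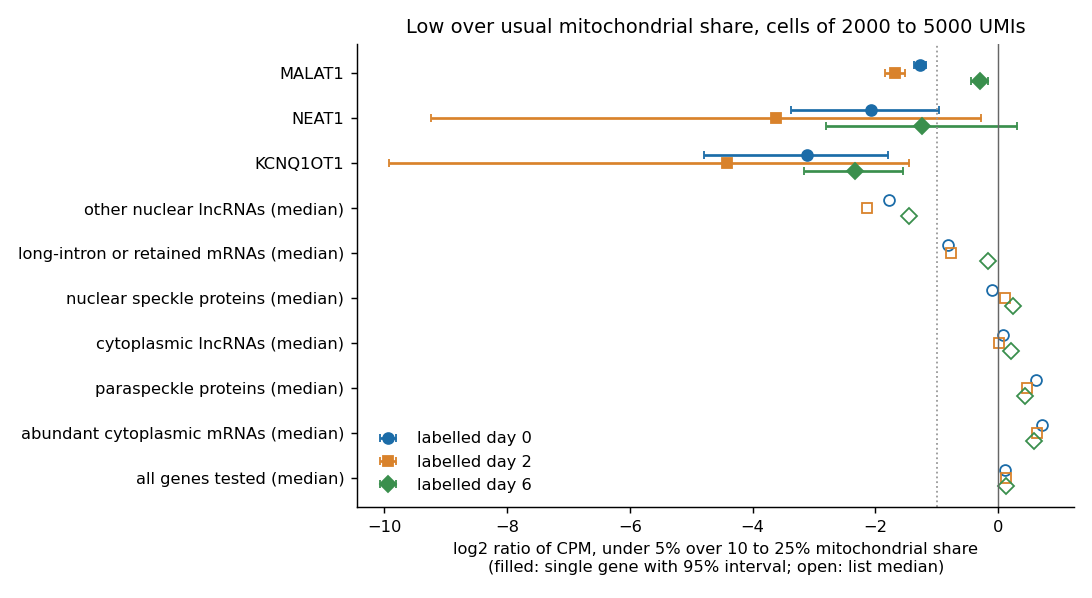
CPM in cells under 5% over cells of 10 to 25% mitochondrial UMIs, for the 3 RNAs and the gene lists in each library. Cells had 2000 to 5000 UMIs, the scale is logarithmic and the reference line marks equal levels. The 3 RNAs lie below equal levels in each library. The median log2 ratios of the other nuclear long non-coding RNAs were −1.78, −2.13 and −1.45 under day 0, day 2 and day 6. Those of abundant cytoplasmic mRNAs were 0.71, 0.63 and 0.58.

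Comparing libraries within 1 class changed some of the library ratios. On the non-mitochondrial scale, MALAT1 under day 2 was 0.215, 0.131, 0.286 and 1.03 (0.949 to 1.12) times its level under day 0, from the lowest class to the highest. The library labelled day 6 had 0.302, 0.151, 0.154 and 0.169 times the level under day 0 in the same 4 classes. The difference of MALAT1 from the label day 0 was thus at least as large as 2-fold in each class for day 6 and in 3 of 4 classes for day 2, but not in cells over 25% under day 2. Between the libraries labelled day 6 and day 2, the MALAT1 ratio ran from 1.41 in the lowest class through 1.15 and 0.537 to 0.164 in the highest, so its side depended on the class. KCNQ1OT1 under day 6 stood at 1.16, 0.347, 0.678 and 1.25 times its level under day 0, and under day 2 at 0.0794 (0.00168 to 0.709), 0.129 (0.0136 to 0.624), 0.198 (0.0761 to 0.437) and 1.85 (0.884 to 4.23) times. NEAT1 under day 2 gave 0.0496 (0.00112 to 0.370), 1.16 (0.166 to 12.8), 0.146 (0.0379 to 0.401) and 0.447 (0.0655 to 2.64) times its level under day 0; the intervals of the classes of 5 to 10% and over 25% reach both sides of 1.

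**Figure D5:**
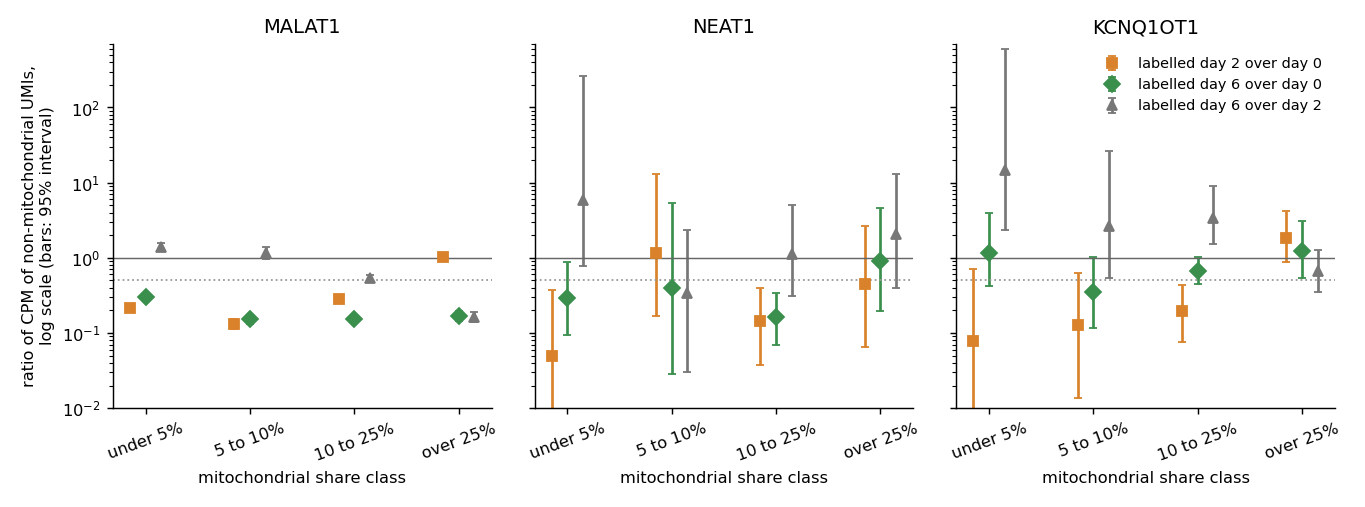
Ratio of each RNA between libraries (logarithmic axis) within 1 class of mitochondrial share, in CPM of non-mitochondrial UMIs from cells of 2000 to 5000 UMIs; bars are exact conditional binomial 95% intervals for counting error. MALAT1 under day 6 lies at 0.302 or less of its level under day 0 in each class, whereas over 25% the library labelled day 2 is level with day 0 at 1.03.

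The few cells with neural markers in the libraries labelled day 2 and day 6 also differed in MALAT1. Cells that held the marker UMIs named above numbered 18 under day 2, with 5104 CPM of MALAT1 (4672 to 5565), against 778 CPM in the 2401 other kept cells. Under day 6, 146 such cells had 1271 CPM (1213 to 1332) of MALAT1, against 616 CPM in the others, and 25.1 CPM (17.5 to 34.9) of NEAT1, against 5.29 CPM (4.6 to 6.06). KCNQ1OT1 under day 6 had 42.3 and 39.9 CPM. In the library labelled day 0 the same split gave no such difference in MALAT1. There 2160 marker cells had 4116 CPM (4091 to 4140), against 4149 CPM (4046 to 4253) in the 130 other kept cells, and the intervals overlapped. The median mitochondrial share was 13.4% in the marker cells and 5.18% in the others under day 2, and 12.5% and 7.97% under day 6; its part in these differences was not tested. Of the 18 barcodes under day 2, 0 were also kept under day 0, and of the 146 under day 6, 5 were.

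Cells rich in mitosis UMIs had lower MALAT1 levels than cells with none, and also a lower mitochondrial share. In kept cells of 2000 to 5000 UMIs, those with at least 5 UMIs per 1000 from mitosis genes had 3483 CPM under day 0 (3277 to 3699, 90 cells), 466 CPM under day 2 (405 to 533, 139 cells) and 346 CPM under day 6 (277 to 425, 78 cells). Cells with none had 3985 CPM under day 0 (3614 to 4384, 33 cells), 894 CPM under day 2 (655 to 1193, 18 cells) and 507 CPM under day 6 (423 to 602, 81 cells), so the intervals were apart under day 2 and overlapped under day 0 and day 6. Their median mitochondrial share was 1.81% in the mitosis-high cells and 13.5% in the cells with none under day 0, 2.17% and 6.25% under day 2, and 2.81% and 6.20% under day 6; its part was not tested.

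MALAT1 was highest under day 0 at each depth of barcode. Under day 0, in 7 classes running from under 500 to over 20000 UMIs, it was 2561, 2072, 2691, 3369, 3915, 3992 and 4358 CPM. Under day 2 it lay between 591 and 872 CPM, and under day 6 between 439 and 713 CPM. Barcodes under 500 UMIs, too small to be kept as cells, had 752 CPM under day 2 and 439 CPM under day 6. KCNQ1OT1 was lower in small cells: at 1000 to 2000 UMIs it had 33.1, 2.14 and 10.6 CPM under day 0, day 2 and day 6, and over 20000 UMIs it had 53.2, 38.5 and 45.3 CPM.

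Over the cells of 2000 to 5000 UMIs with at most 25% mitochondrial UMIs (476 cells under day 0, 775 under day 2 and 1171 under day 6), MALAT1 and the summed other nuclear long non-coding RNAs had Pearson correlations of 0.601, 0.317 and 0.389 on a log2(CPM + 100) scale. MALAT1 and the mitochondrial share had correlations of 0.472, 0.399 and 0.095, and MALAT1 and the share of ribosomal protein UMIs −0.533, −0.305 and −0.250. The cells of a library share its depth and handling, and the same total divides both measures. With KCNQ1OT1, MALAT1 gave 0.251, 0.141 and 0.128, and with NEAT1 0.149, 0.028 and 0.119, values too weak in sparse counts to describe a relation.

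The genes most like each member were found over 12 points, the 4 mitochondrial classes of the 3 libraries, among 5923 genes, by Pearson correlation of log2(CPM of non-mitochondrial UMIs + 1). For MALAT1 they were RBM25, a splicing regulator (0.946), UBA6, a ubiquitin-like modifier activating enzyme (0.944), DNAJB14 (0.940), the phosphodiesterase PDE4D (0.938) and ANKRD12 (0.938). For KCNQ1OT1 they were the bromodomain gene BAZ2B (0.980), the axon guidance receptor ROBO1 (0.965), the chromatin remodelling subunit BPTF (0.961), KANSL1, part of a histone acetyltransferase complex (0.960), and the cytoskeletal linker DST (0.958). NEAT1, whose points rest on 1 to 42 UMIs, gave C1orf21 (0.943), FAM35A (0.857), GPRC5C (0.836), PTK2 (0.827) and CCDC88A (0.826). Between the members the correlations were 0.628 for MALAT1 and NEAT1, 0.602 for MALAT1 and KCNQ1OT1, and 0.656 for NEAT1 and KCNQ1OT1. The points of 1 library share its cells' source and its depth.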

How the data were processed

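For each library the authors deposited whole-number counts per gene symbol and barcode, taken here as UMI counts, although no source says that duplicate reads were collapsed. STAR and hg38 are named, with no version, per the submitters' processing notes; the sources used here give no annotation, strand setting or barcode filter. Every deposited barcode had at least 100 genes, and doublets were kept. UMIs were summed over kept cells, or over classes of cells of 2000 to 5000 UMIs with no gene minimum, and divided by all UMIs or by non-mitochondrial UMIs to give CPM. Levels have exact Poisson intervals, ratios exact conditional binomial intervals, and shares of cells counting error only. In ratios, a count of 0 in 1 group was replaced by a floor of 3 UMIs. That floor is 0.106, 0.145 and 0.0727 CPM in the kept cells labelled day 0, day 2 and day 6. It is lower than the upper end of the exact Poisson interval of a count of 0. The limit given for a share of 0 cells uses the same 3. A gene was counted as higher or lower past 2-fold where either group had at least 10 CPM. With 1 library per day no test between days was possible.

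Genes named are the members, the extremes and the genes of at least 100 CPM of each list, and the 5 genes most like each member; further list genes were named for their known role. The members, gene lists and alternatives were chosen with earlier results of these data known. Alternatives were other totals, edgeR 4.0.16 TMM factors (R 4.3.3), gene minimums, cell filters and UMI windows. Python 3.11.15, numpy 2.4.6, scipy 1.17.1 and pandas 2.3.3 were used. Sequences and positions are from GENCODE v29.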

Additional observations from a re-analysis of the deposited data

Results flagged for a closer look

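Cells with over 25% mitochondrial UMIs stood on different sides of cells with 10 to 25% in different libraries per non-mitochondrial UMI. The class over 25% is left out of the library levels, but both classes are among those by which the members were chosen. In cells of 2000 to 5000 UMIs, as a ratio of CPM of non-mitochondrial UMIs, MALAT1 was 0.395 times its level at 10 to 25% in the library labelled day 0 (0.366 to 0.425), 1.42 times in that labelled day 2 (1.30 to 1.56) and 0.433 times in that labelled day 6 (0.369 to 0.507). KCNQ1OT1 was 0.289 times (0.131 to 0.573), 2.70 times (1.17 to 7.26) and 0.531 times (0.286 to 0.940). Past 2-fold in either direction were 16.3%, 21.5% and 12.8% of genes in these comparisons. In cells of 5000 to 20000 UMIs the ratios were 0.609, 1.92 and 0.451 for MALAT1 and 0.495, 1.33 and 0.736 for KCNQ1OT1 on the same scale, and 0.484, 1.38 and 0.349 for MALAT1 as a share of all UMIs. The side under day 2 turned with the total: as a share of all UMIs MALAT1 stood at 0.920 times (0.839 to 1.01) and KCNQ1OT1 at 1.74 times (0.754 to 4.69) in cells of 2000 to 5000 UMIs, and KCNQ1OT1 at 0.957 times (0.739 to 1.24) in the deeper cells. NEAT1, on the non-mitochondrial scale, was at 0.149 (0.0387 to 0.410), 0.457 (0.0669 to 2.70) and 0.833 (0.219 to 2.77) times in cells of 2000 to 5000 UMIs, from 3 to 42 UMIs a class, and at 0.622 (0.334 to 1.07), 1.75 (1.03 to 3.05) and 1.59 (0.909 to 2.70) times in those of 5000 to 20000 UMIs.

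Each library gives 1 value, and the difference between libraries was not tested. Without the cells with neural markers, MALAT1 was at 1.43 times and KCNQ1OT1 at 2.58 times under day 2, and at 0.431 and 0.539 times under day 6. The summed pluripotency markers in the cells over 25% were 3766 CPM of non-mitochondrial UMIs, against 5282 CPM at 10 to 25%, under day 2, and 3773 against 4244 CPM under day 6; their part was not tested. Median mitochondrial shares in the cells over 25% were 40.5%, 46.4% and 41.5%.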

How the results depend on the processing

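No paired analysis was possible because each labelled day has 1 library, and no library could be left out of a comparison for the same reason. Over 10 other settings for the library ratios, MALAT1 lay between 0.147 and 0.217 (day 2 over day 0) and between 0.150 and 0.176 (day 6 over day 0), NEAT1 between 0.114 and 0.233 and between 0.159 and 0.367, so that both stayed past 2-fold; KCNQ1OT1 lay between 0.0967 and 0.625 and between 0.486 and 0.825. For day 6 over day 2 the ranges were 0.700 to 1.18 for MALAT1, 0.923 to 1.71 for NEAT1 and 1.32 to 5.03 for KCNQ1OT1. Over 8 other settings for cells under 5% against 10 to 25%, MALAT1 lay at 0.353 to 0.559 (day 0), 0.255 to 0.615 (day 2) and 0.694 to 0.986 (day 6), and KCNQ1OT1 at 0.0989 to 0.235, 0.0383 to 0.672 and 0.170 to 0.567. NEAT1 under day 0 turned to 1.09 in cells of 1000 to 2000 UMIs and to 1.24 against the class of 5 to 10%. Within single mitochondrial classes, an alternative chosen after seeing the data, NEAT1 turned to 1.16 (5 to 10%) and MALAT1 to 1.03 (over 25%) for day 2 over day 0; the cause was not tested.

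Counts of members past 2-fold moved as follows. For day 2 over day 0 (2 members) the count was 1 with a minimum of 50 CPM and 0 within the class over 25%; for day 6 over day 0 (2) it was 1 under each of these. For day 6 over day 2 (0) it was 1 with means over cells, in cells of 2000 to 5000 UMIs, with at most 10% mitochondrial UMIs and within the classes of 10 to 25% and over 25%, and 2 within that of 5 to 10%. For cells under 5% it was 1 under day 0 (3) in cells of 1000 to 2000 UMIs, and 1 under day 2 (2) in those cells, against the class of 5 to 10% and at 50 CPM. Under day 6 (1) it was 2 with each total that leaves out mitochondrial genes and with no minimum, and 0 against 5 to 10% and at 50 CPM. Genes past 2-fold depended on the gene minimum of 10 CPM: 2064 for day 2 over day 0 became 728 at 50 CPM and 11141 with no minimum, 1488 for day 6 over day 2 became 501 and 10221, and 1616 for day 6 over day 0 became 542 and 10633. For cells under 5%, 2466 under day 0 became 772 and 6727, 1955 under day 2 became 381 and 7365, and 1183 under day 6 became 228 and 6444; in cells of 1000 to 2000 UMIs the counts were 3762 under day 0 and 1976 under day 6. Leaving out cells with neural markers, also chosen after seeing the data, changed no count of members; MALAT1 was then 0.189 (day 2 over day 0) and 0.150 (day 6 over day 0).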

Other observations

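Among 3106 genes other than the 3 RNAs with at least 50 CPM of non-mitochondrial UMIs in a class of each library, the lowest ratios of cells under 5% over cells of 10 to 25% in all 3 libraries belonged to LINC00658, a long non-coding RNA of chromosome 20. It had 3.15 against 57.4 CPM of non-mitochondrial UMIs under day 0 (0.0549 times), 6.88 against 101.2 CPM under day 2 (0.068 times) and 3.21 against 56.1 CPM under day 6 (0.0573 times). Next was the gene listed as RP11-388G22.1, at 18.9 against 319 CPM under day 0 (0.0593 times). It had 23.8 against 279 CPM under day 2 (0.0852 times) and 21.6 against 256 CPM under day 6 (0.0843 times). The gene listed as RP5-857K21.4 came after it. RP5-857K21.4 stood at 1608 against 20796 CPM under day 0, 2382 against 23167 CPM under day 2 and 1935 against 17532 CPM under day 6. At the other end stood HJURP, which loads centromeric histones (1.85, 2.58 and 1.87 times under day 0, day 2 and day 6), the mitotic kinase CDK1 (2.16, 1.92 and 1.71 times) and FBXO5, an inhibitor of the anaphase-promoting complex (1.76, 2.13 and 1.71 times). LINC00658, RP11-388G22.1 and RP5-857K21.4 were named after their values were seen. RP11-388G22.1 and RP5-857K21.4 have no position in the annotation used here. The part of mitochondrial reads in the counts of RP5-857K21.4 was not tested. Its ratios were 0.0773, 0.103 and 0.110 under day 0, day 2 and day 6. The median mitochondrial shares of the same classes were 1.21% against 14.8%, 2.02% against 17.0% and 1.90% against 15.7%.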
